A study of Rattus norvegicus with 4 samples.

Results

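The genes described here encode the subunits of the rat proteasome, the chaperones that assemble it, its activators and its inhibitor. They were taken as the non-control array probes whose accession carries a rat symbol that starts with Psma, Psmb, Psmc, Psmd, Psme, Psmf or Psmg followed by a digit, leaving out Psmb8 and Psmb9. The rule found 48 probes of 45598, which stand for 45 genes of the 16581 named on the array. It used no measured value. RNA came from 4 cultures of NR8383, an alveolar macrophage line derived from cells washed out of rat lung. All 4 had been exposed to the titanium dioxide material NRCWE001, at 3 cm2 of particles per cm2 for 4 h, and each was hybridised to an array of its own (replicates 1 to 4). They form 1 group, and unexposed cells were not analysed here, so nothing below is an effect of the particles. What can be compared is a gene with its array background, and the spread of a gene between the 4 arrays.

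The proteasome degrades proteins that carry ubiquitin. Its core is a barrel of stacked rings: outer rings of alpha subunits gate the entrance, and inner rings of beta subunits hold the proteolytic sites. A cap docks on the alpha ring. The base of the cap has a ring of ATPases that unfolds the substrate, and its lid removes the ubiquitin chain. In macrophages, proteasome products also feed antigen presentation, and interferon exchanges catalytic beta subunits for inducible ones. The transcription factors NRF1 (Nfe2l1) and NRF2 (Nfe2l2) act on proteasome genes through antioxidant response elements, and the factor NF-Y binds CCAAT boxes in many housekeeping promoters.

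Promoter sequence was available for 41 of the 45 genes, from the RefSeq tables of the rat assembly GRCr8. Each window holds 300 bases, 250 before the annotated start and 50 after it. The following 4 are shown because the core alpha and core beta genes differed in their pattern over the arrays, as described further on. They also cover catalytic and structural subunits with different motif letters. A link between the motifs and that pattern was not tested. Capitals mark a match to TGACNNNGC, the antioxidant response element core, or to CCAAT, the NF-Y core. Both strands were searched, so a capital run such as ATTGG is a match on the other strand, and the letters of the motifs could overlap. Psmb5 encodes the chymotrypsin-like subunit, Psmb6 the caspase-like subunit, and Psma5 and Psma3 are alpha ring subunits.
Psmb5 (chr15:32047330-32047629, minus strand): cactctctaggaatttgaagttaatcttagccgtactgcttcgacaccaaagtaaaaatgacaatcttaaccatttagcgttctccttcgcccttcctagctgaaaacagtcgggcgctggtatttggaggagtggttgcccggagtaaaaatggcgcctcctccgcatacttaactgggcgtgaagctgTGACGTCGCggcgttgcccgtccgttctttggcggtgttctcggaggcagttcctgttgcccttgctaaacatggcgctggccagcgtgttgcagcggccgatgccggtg
Psmb6 (chr10:55737638-55737937, plus strand): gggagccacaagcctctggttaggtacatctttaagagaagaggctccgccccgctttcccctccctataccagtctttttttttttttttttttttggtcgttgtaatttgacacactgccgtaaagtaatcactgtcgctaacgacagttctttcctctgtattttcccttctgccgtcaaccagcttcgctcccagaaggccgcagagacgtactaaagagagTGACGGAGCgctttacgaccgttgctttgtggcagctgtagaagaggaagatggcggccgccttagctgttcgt
Psma5 (chr2:198584255-198584554, plus strand): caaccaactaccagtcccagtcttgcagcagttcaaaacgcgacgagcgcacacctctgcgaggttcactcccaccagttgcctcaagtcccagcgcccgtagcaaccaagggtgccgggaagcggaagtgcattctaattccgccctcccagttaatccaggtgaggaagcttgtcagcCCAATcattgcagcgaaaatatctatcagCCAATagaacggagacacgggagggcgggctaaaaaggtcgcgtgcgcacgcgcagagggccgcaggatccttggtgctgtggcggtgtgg
Psma3 (chr6:95219499-95219798, plus strand): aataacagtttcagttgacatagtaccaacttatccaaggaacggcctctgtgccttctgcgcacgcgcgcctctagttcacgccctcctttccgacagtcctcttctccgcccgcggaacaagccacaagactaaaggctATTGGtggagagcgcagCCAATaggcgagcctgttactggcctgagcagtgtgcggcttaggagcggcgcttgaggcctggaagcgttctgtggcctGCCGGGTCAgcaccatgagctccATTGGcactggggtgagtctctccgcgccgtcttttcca

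In Psmb5 the element core began 60 bases before the start, and in Psmb6 it began 24 bases before. Psma5 held CCAAT at 70 and 41 bases before the start and no TGACNNNGC. Psma3 held both motifs, with TGACNNNGC on the other strand from 12 bases before the start. Of the 41 promoters, 8 held TGACNNNGC (19.5%), against 12.1% of all 33469 promoters of the same length. CCAAT was found in 20 of 41 (48.8%), against 37.5% of all promoters. Among the core beta genes 3 of 7 had TGACNNNGC (Psmb2, Psmb5 and Psmb6), and among the core alpha genes 1 of 7, Psma3. For CCAAT the counts were 5 of 7 alpha and 4 of 7 beta promoters. These 7 alpha promoters were those of Psma1 to Psma6 and of Psma8, as Psma7 had no promoter sequence. They are therefore not the same 7 genes as the alpha genes detected on all arrays. The median GC content was 56.0% in the members' promoters and 51.7% in all promoters. A match of letters is a description and not a bound site.

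Levels are given as log2 of the processed spot signal minus the array's 75th percentile, so 0 is that percentile, and a level depends on the probe and cannot be set against another gene's. The percentiles lay between 346.8 and 554.2 intensity units, with a median local background of 36 to 41 units, and no spot was saturated. The line was checked against macrophage markers, of which 9 of 12 were detected on all arrays, while Adgre1, Cd163 and Marco were on none. Of the markers of other cells, 1 of 6 for epithelium (Foxj1), 0 of 3 for lymphocytes, 1 of 3 for granulocytes (S100a8) and 1 of 5 for fibroblasts and endothelium (Cdh5) were detected on all arrays. The lymphocyte marker Cd3d was detected on 3 arrays and the epithelial marker Krt18 on 1. Spots in columns 1 to 72 of replicate 1 stood apart: there the median deviation of all detected genes was 0.03, against -0.02 beyond column 72, after the array's median was taken off. The 4 arrays were labelled biological replicates in the design text.

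A gene was detected on an array where over 0.5 of the spots of any of its probes were well above background. By this measure 43 of the 45 genes were detected on all 4 arrays (background 45.7%, 7579 of 16579 genes with a value on every array). In the core, 7 of 8 alpha genes and 7 of 7 constitutive beta genes were detected. In the cap these were 6 of 6 ATPases, 3 of 3 non-ATPases of the base and 8 of 8 lid genes. All 3 cap assembly chaperones, both measured core chaperones and the inhibitor were detected, and 3 of 4 activators were. The exceptions were Psma8 and Psme4.

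**Figure D1:**
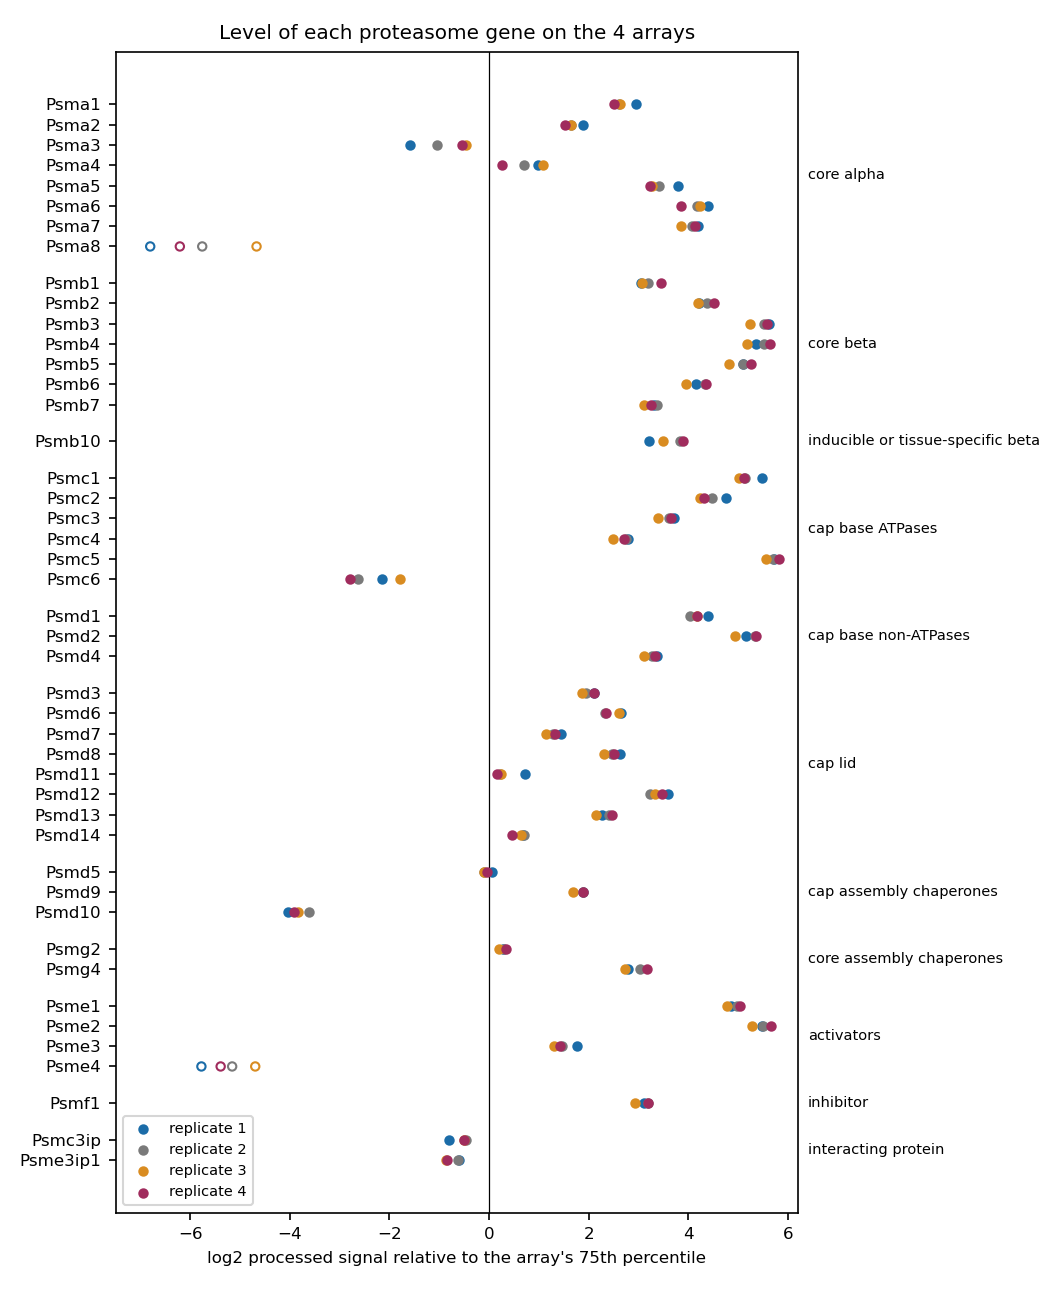
Level of each of the 45 genes on the 4 arrays, as log2 processed signal relative to the array's 75th percentile (vertical line at 0), with 1 point for each replicate and genes grouped by role from top to bottom. Filled circles are genes detected on all 4 arrays, and open circles are Psma8 and Psme4, detected on replicate 3 alone.

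Psma8 encodes the alpha subunit of the testis proteasome, a counterpart of Psma7. Its level was -4.67 on replicate 3, where it was well above background, and -6.80, -5.76 and -6.21 on replicates 1, 2 and 4, where it was not. Psme4 encodes PA200, a large nuclear activator, and had a level of -4.70 on replicate 3 and -5.78, -5.16 and -5.39 on replicates 1, 2 and 4. Replicate 3 was the array with the highest 75th percentile, and its lowest level well above background was -5.05, against -5.00, -4.45 and -4.66 on replicates 1, 2 and 4. Detection on replicate 3 alone was found for 1.48% of all genes. Under the more lenient flag for a signal that is positive and significant over background, all 45 genes were detected on 4 arrays (background 55.3%). The part of the scale of replicate 3 in these 2 detections was not tested.

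The spread of each gene between the arrays was compared with that of genes of like level, by limma's prior variance with a trend, adjusted by the Benjamini-Hochberg method over 7570 detected genes. None of the 43 detected members was called more variable than such genes at an adjusted p under 0.05, 0 of 43 (background 0.515%, 39 of 7570 genes). At an unadjusted p under 0.05 there were 4 of 43 (background 6.67%). The members' median SD was 0.16 (0.157), against 0.163 for all detected genes, and which of the medians was higher depended on the setting: with normexp they were 0.1695 and 0.1491, and with quantile normalization 0.1034 and 0.1469. The largest fold between the highest and lowest array was 2.18, for Psma3, and the smallest was 1.11, for Psmg2. In 3 of 43 genes 1 array stood apart from the others by Dixon's ratio of gap to range (background 5.46%). The 4 genes with an unadjusted p under 0.05 were Psma3, Psma4, Psmc6 and Psmb10.

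**Figure D2:**
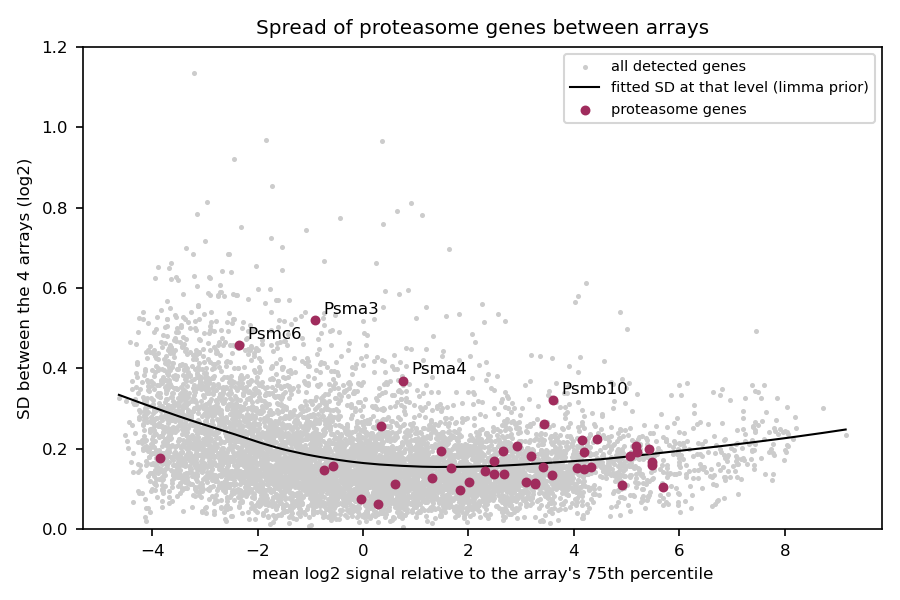
SD between the 4 arrays (vertical axis, log2) against mean level (horizontal axis, log2 relative to the 75th percentile) for all detected genes in gray and the 43 detected proteasome genes in red, with the SD fitted at that level as a line. Psma3, Psmc6, Psma4 and Psmb10 are labelled, with SDs of 0.52, 0.46, 0.37 and 0.32.

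Psma3, an alpha ring subunit, had the largest SD among the 7 alpha genes detected on all arrays. Its level was -1.59, -1.06, -0.47 and -0.54 on replicates 1 to 4. Replicate 1 was the low array, and replicates 3 and 4 were close together. Its SD was 0.52 (n = 4 arrays, limma adjusted p = 0.0844). The gene passed the threshold when replicate 2 was left out (limma adjusted p = 0.00809), with the normexp background correction (adjusted p = 0.0035) and with no filter on dim genes (adjusted p = 0.0234). Without replicate 1 its SD was 0.32 (limma adjusted p = 0.761). The probe has a single spot, at column 42, and the part of that position was not tested. As for 19 of the genes, Psmb3 (8), Psma6 (5), Psme3 (4) and Psmc6 (2) among them, the gene table lists pseudogenes of Psma3 (2), and signal from any transcripts of these cannot be told apart here.

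Psma4, another alpha ring subunit, had levels of 0.99, 0.70, 1.07 and 0.25 on replicates 1 to 4. Replicate 4 was low. Its SD was 0.37 (limma adjusted p = 0.261), and 0.19 without replicate 4. It was printed on 2 spots, and they agreed in this order: the spot at column 52 gave 0.92, 0.68, 1.01 and 0.25, and the spot at column 111 gave 1.06, 0.73, 1.14 and 0.26. The low value on replicate 4 was seen on both sides of the array. The other 5 detected alpha genes, Psma1, Psma2, Psma5, Psma6 and Psma7, had SDs of 0.15 to 0.26, and all had their highest level on replicate 1.

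Among the catalytic beta genes, Psmb5 had levels of 5.11, 5.09, 4.82 and 5.25 on replicates 1 to 4. Psmb6 had 4.15, 4.33, 3.94 and 4.36. Psmb7, which encodes the trypsin-like subunit, had 3.31, 3.38, 3.11 and 3.25. All 3 were lowest on replicate 3, as were 45.3% of all detected genes, and their SDs were 0.18, 0.19 and 0.11. A second probe of Psmb6 gave 3.92, 4.04, 3.70 and 4.15, with the same highest and lowest array. The structural subunit Psmb4 had the largest SD of the beta genes, 0.20, with levels of 5.37, 5.52, 5.17 and 5.63. The other structural genes, Psmb1, Psmb2 and Psmb3, had SDs of 0.16 to 0.18. Psmb10 encodes the inducible subunit that takes the place of Psmb7 in the immunoproteasome. Its level was 3.20, 3.84, 3.49 and 3.88 on replicates 1 to 4, with replicate 1 the lowest. The SD was 0.32 (n = 4 arrays, limma adjusted p = 0.522), and 0.22 without replicate 1. Its only spot lies at column 45, and the part of that position was not tested. The other inducible subunits, left out by the rule, were also detected on all arrays: Psmb8 had levels of 4.97, 4.82, 4.56 and 4.89, and Psmb9 had 3.69, 3.70, 3.42 and 3.80. Replicate 1 was the lowest array for Psmb10 but not for Psmb8 and Psmb9.

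In the cap base, the ATPase Psmc6 had the largest SD, 0.46 (limma adjusted p = 0.493). Its levels were -2.15, -2.63, -1.80 and -2.80, with replicate 3 the highest. With normexp background correction its SD was 0.23. The other 5 ATPases had SDs of 0.11 to 0.22. Psmc1 was measured by 2 probes, with levels of 5.49, 5.13, 5.01 and 5.11 for the brighter one and 3.01, 2.84, 2.71 and 2.87 for the other, both highest on replicate 1 and lowest on replicate 3. Among the non-ATPases of the base, the scaffold gene Psmd2 had the largest SD, 0.19, with levels of 5.16, 5.33, 4.94 and 5.35. The others were Psmd1, also a scaffold, and Psmd4, a ubiquitin receptor.

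In the lid the SDs ran between 0.11 and 0.26. The largest was that of Psmd11, a lid scaffold subunit, with levels of 0.72, 0.22, 0.23 and 0.16. Replicate 1 stood above the other arrays, which lay close together (limma adjusted p = 0.858). The smallest was that of Psmd14, the deubiquitinase of the lid, with levels of 0.68, 0.69, 0.64 and 0.45. The cap assembly chaperones had SDs of 0.07 to 0.18. The largest belonged to Psmd10 (gankyrin), with levels of -4.04, -3.62, -3.84 and -3.92. The core chaperone Psmg4, which acts on the alpha ring, had an SD of 0.21 and levels of 2.79, 3.03, 2.73 and 3.17. Its second probe was not detected on any array, so the gene rests on 1 probe. Psmg2, another alpha ring chaperone, had an SD of 0.06. Psmg1 and Psmg3, the partners of these chaperones, had no named probe and are not analysed here.

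The activators bind the ends of the core in place of the cap. Psme1 and Psme2 are interferon-induced partners in one ring, and Psme3 forms a nuclear ring of its own. Psme1 had levels of 4.86, 4.97, 4.78 and 5.03 on replicates 1 to 4. Psme2 had 5.48, 5.50, 5.27 and 5.65. Both were lowest on replicate 3 and highest on replicate 4. Psme3 had 1.76, 1.45, 1.31 and 1.42, with replicate 1 the highest and an SD of 0.19, the largest of the 3 activators detected on all arrays. The inhibitor Psmf1 (PI31) had 3.10, 3.18, 2.93 and 3.18. No activator, and not the inhibitor, had an unadjusted p under 0.05 in the limma variance test. The rule also caught Psmc3ip, a meiotic recombination factor, and Psme3ip1, which binds Psme3. They are not proteasome subunits. Psmc3ip had levels of -0.80, -0.46, -0.50 and -0.51, and Psme3ip1 had -0.60, -0.62, -0.87 and -0.86.

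The alpha and beta genes of the core did not follow the same order over the arrays. This was noticed after the values were seen, and is a description without a test. For each gene the deviation from its own mean over the 4 arrays was taken, and the median deviation of all detected genes on that array was subtracted. The median over the 7 alpha genes was 0.22, -0.05, 0.05 and -0.22 on replicates 1 to 4. The median over the 7 beta genes was -0.05, 0.03, -0.17 and 0.14. Since a gene's deviations add up to about 0, the 4 values are not independent. Alpha genes were thus higher on replicate 1 and lower on replicate 4, relative to other genes, and beta genes were higher on replicate 4.

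By gene, 5 of 7 alpha genes and 1 of 7 beta genes were highest on replicate 1 (background 25.7%). On replicate 4, 0 of 7 alpha genes and 5 of 7 beta genes were highest (background 33.6%), and 5 of 7 alpha genes and 0 of 7 beta genes were lowest (background 16.2%). The level was higher on replicate 1 than on replicate 4 for 6 of 7 alpha genes, by a median of 0.45, and for 2 of 7 beta genes, with a median difference of -0.20 (background 44.1%, median -0.04). The exception among the alpha genes was Psma3. In the cap, 4 of 6 ATPases and 6 of 8 lid genes were highest on replicate 1 (background 25.7%). Of all 43 members, 22 were highest on that array. Higher levels on replicate 1 than on replicate 4 were found for 5 of 6 ATPases and 7 of 8 lid genes. Their median differences were 0.22 and 0.13. Over all 43 members, the median relative deviation was 0.09, -0.01, -0.06 and 0.01 on replicates 1 to 4.

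**Figure D3:**
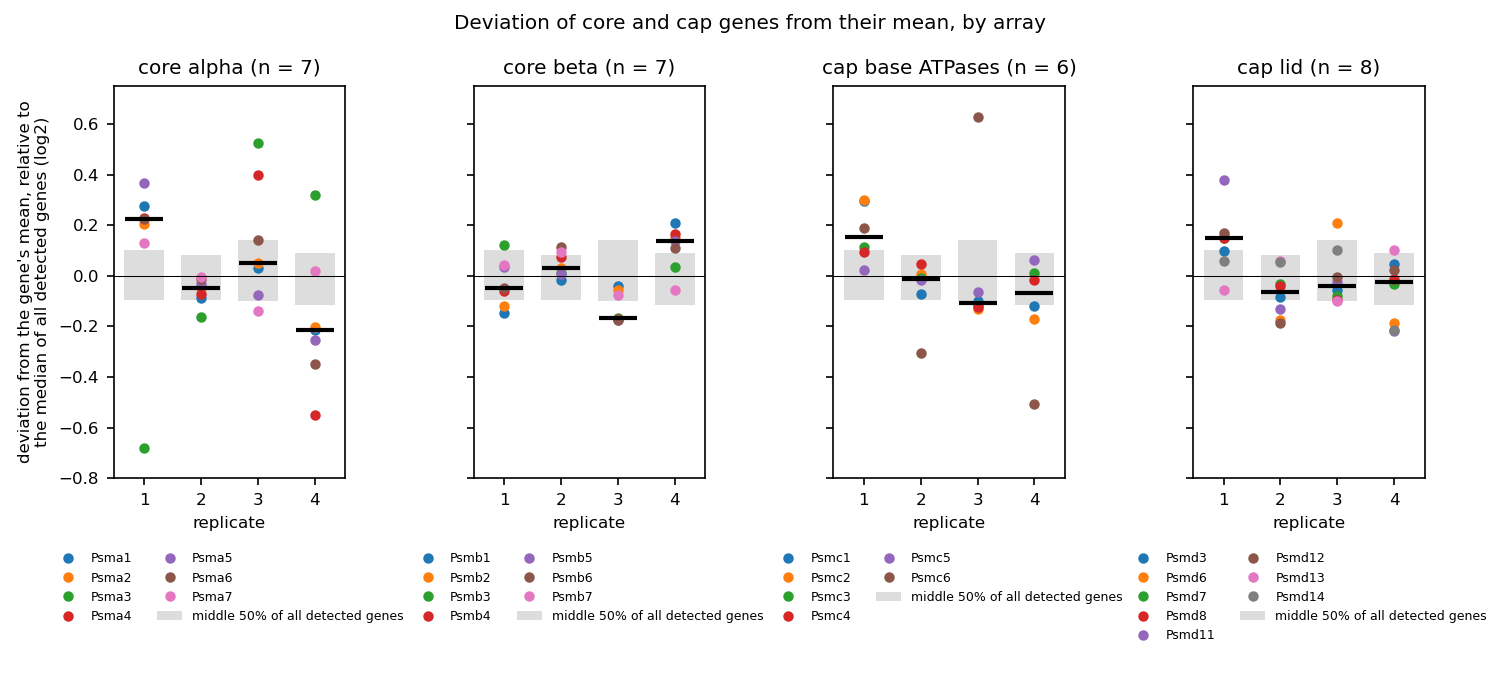
Deviation of each gene from its mean over the 4 arrays, relative to the median of all detected genes (log2), by replicate, for core alpha, core beta, cap ATPase and lid genes. Points are genes, black bars the group medians, and gray blocks the middle 50% of all detected genes: 6 of 7 alpha genes lie above the block on replicate 1 and 5 of 7 below it on replicate 4, where 5 of 7 beta genes lie above it.

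Spots of 1 gene on different sides of replicate 1 gave different values. Psma5, printed on 2 spots, had 4.09 at column 12 and 3.51 at column 88 on replicate 1, while on replicate 4 the spots gave 3.26 and 3.18. Psma1 had 3.11 at column 30 and 2.78 at column 163 on replicate 1, and 2.49 and 2.50 on replicate 4. On this scale, the spots of both genes beyond column 72 were still highest on replicate 1 and lowest on replicate 4, but by less. The setting with probes beyond column 72 alone also rescaled each array by the spots kept. In it the SD between arrays was 0.05 for Psma1, against 0.19 with every column, and 0.09 for Psma5, against 0.26. The part of the rescaling in these lower SDs was not tested, and the order of the arrays was not read from that setting. Psmb3 went the other way between its spots: at column 47 it was highest on replicate 1, with 5.78, and at column 151 it was highest on replicate 4, with 5.65. The spots in columns 1 to 72 were not always the higher ones on replicate 1. Psmb2 had 4.04 at column 32 and 4.39 at column 107 there, and Psma4 had 0.92 at column 52 and 1.06 at column 111. Both genes were lower at the first of these columns on every array. Psmb4 had 5.13 and 5.03 at columns 38 and 41 of replicate 1, and 5.32 to 5.60 beyond column 72. The 4 genes printed on 10 spots were not alike in the spread of their spots. The SD between spots on replicates 1 to 4 was 0.17, 0.07, 0.05 and 0.05 for Psmb4, and 0.13, 0.07, 0.07 and 0.04 for Psme1. It was 0.10, 0.08, 0.07 and 0.12 for Psma7, and 0.06, 0.08, 0.07 and 0.08 for Psme2, so these genes did not have their largest spot SD on replicate 1. With probes beyond column 72 alone, 5 alpha and 5 beta genes remained measured, and the difference between their medians on replicate 1 was 0.19, against 0.27 with every column. Scaling an array by a single value cannot change this difference. Its sign on each array was the same under quantile normalization, under normexp and without each replicate in turn.

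**Figure D4:**
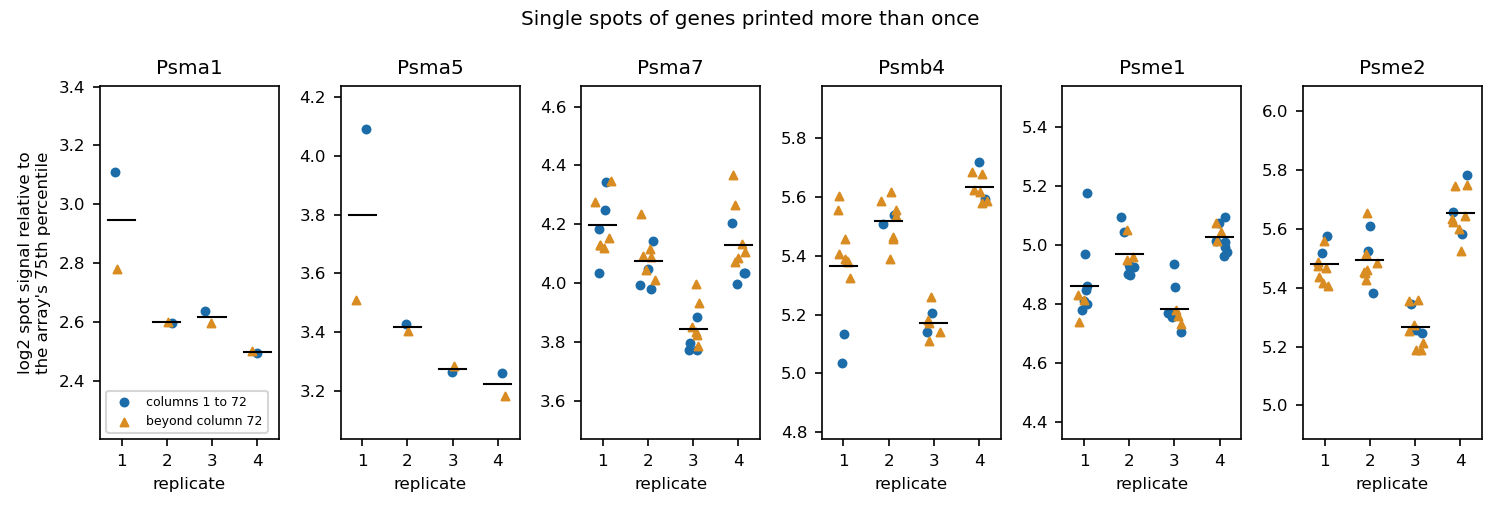
Level of single spots (log2, relative to the array's 75th percentile) by replicate for 6 genes printed more than once, with the array mean as a black bar, circles for columns 1 to 72 and triangles for columns beyond 72. The vertical axes start at different values but span the same height, and the spots of Psma1 and Psma5 lie apart on replicate 1 and close together on the other arrays.

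**Figure D5:**
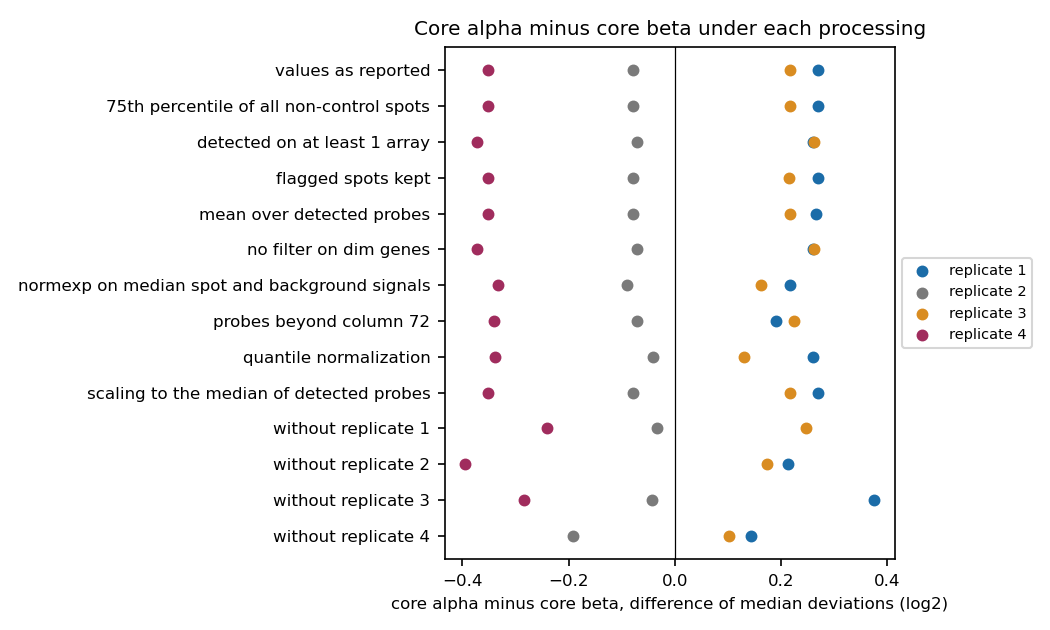
Difference between the median deviations of core alpha and core beta genes (alpha minus beta, log2) on each replicate, for the values as reported and each other processing. The reported values are 0.27, -0.08, 0.22 and -0.35 on replicates 1 to 4, and the points of each replicate stay on their side of 0, which settings that only rescale an array cannot alter.

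Genes that work with the proteasome were described in the same way. Of 31 measured genes in 6 lists, 29 were detected on all arrays (background 45.7%), 0 were called more variable (background 0.515%), and 0 had an unadjusted p under 0.05 (background 6.67%) by limma. All 4 measured subunits and assembly factors without a Psm symbol were detected. The ubiquitin receptor Adrm1 had the largest SD among them, 0.24, with levels of -1.75, -1.79, -2.23 and -2.10. All 4 proteasome-bound enzymes and adaptors were detected, with the largest SD for Midn (0.25), which brings proteins to the proteasome without ubiquitin: -3.37, -3.80, -3.85 and -3.42. The shuttle receptors carry ubiquitinated proteins to the proteasome, and 5 of 6 were detected. Ddi2, which cleaves and activates NRF1, was not well above background on any array, and had the largest SD, 0.29, with values of -4.92, -5.56, -5.39 and -5.07. Among the detected ones it was Ubqln2 (0.21), with levels of -2.29, -1.97, -1.91 and -1.81.

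Of the ubiquitin genes and ubiquitin-activating enzymes, 5 of 6 were detected. Uba6, an activating enzyme, was on no array, with values of -6.67, -5.81, -7.26 and -6.86 and an SD of 0.61. Rps27a, which encodes ubiquitin fused to a ribosomal protein, had 7.52, 7.77, 7.14 and 7.57 (SD 0.26). All 6 genes of the unfoldase p97 and its cofactors were detected, with the largest SD for the cofactor Nsfl1c (0.19): 4.21, 3.85, 3.81 and 4.11. All 5 measured transcription factors and NRF1-processing genes were detected, with the largest SD for the small Maf protein gene Maff (0.27): -0.27, 0.15, 0.01 and 0.38. Nfe2l1, Paaf1, Uchl5, Ube3c, Ecpas and Zfand5 had no named probe and are not analysed here.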

How the data were processed

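RNA of 4 NR8383 cultures, all exposed, was measured on 4 one-colour arrays, and group and replicate came from the sample titles. The authors deposited spot intensity after background subtraction, made by Agilent Feature Extraction (version 11.0.1.1) and without scaling across arrays, per the file headers. Levels were computed here as log2 of the deposited processed signal, less the 75th percentile of the non-control spots kept on the array. Flagged outlier spots, 634 to 669 on an array, were dropped. Repeat spots of a probe were averaged, and the brightest probe represented a gene. Of 45598 probes, 21109 were named by accession through the RefSeq table of GRCr8. The rule also matches 7 protein-coding symbols and 48 pseudogenes without a named probe.

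The variance between arrays was tested by limma (version 3.58.1, under R 4.3.3, 24.3 prior and 3 residual degrees of freedom). The test was checked on simulated data, where it missed most genes whose spread was moderately raised, so an absence of calls does not show that spreads were alike. The number of arrays and spot noise limit the precision. Values per array are given for the catalytic genes, Psmb10, the activators and the inhibitor, for the gene with the largest SD in each role or list, and for genes not detected on every array. Psma4, Psmc1, Psmd14 and the interacting proteins were added to these after their values were seen. The members, lists and tests were chosen with earlier results of these data known. Alternatives were normexp (offset 50) on median spot and background signals, quantile normalization, other scalings, filters, detection flags and priors, flagged spots kept, probes beyond column 72 and each replicate left out. For probes beyond column 72, each array was scaled by the 75th percentile of the spots kept.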

Additional observations from a re-analysis of the deposited data

Results flagged for a closer look

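In 3 of the 43 detected genes, 1 array stood apart from the other arrays by more than Dixon's 95% critical value for the ratio of the gap to the range. Chance gives about 1 in 20 genes, and 5.46% of all detected genes passed. The ratio was 0.9425 for the cap chaperone Psmd9, with levels of 1.89, 1.88, 1.69 and 1.87 and replicate 3 low. It was 0.8811 for the lid gene Psmd11, with replicate 1 high, and its only spot lies at column 41. It was 0.8405 for Psmc3ip, with replicate 1 low. The part of array position in these was not tested.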

How the results depend on the processing

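Detection on all arrays held for 43 to 45 members in every setting. No member was called in the reported values. The count was 1, Psma3, with no filter on dim genes, with normexp and without replicate 2 (range 0 to 1 over the fits that left out a replicate), while all genes called numbered 39 as reported, 127 with no filter, 206 with normexp, 77, 10 and 16 without replicates 2, 3 and 4, 9 with a prior that was not robust, 7 beyond column 72, 0 with a prior without trend and 0 with quantile normalization. For the members, the unadjusted p was under 0.05 for 2 to 6 genes. The members' median SD was 0.1034 with quantile normalization (all genes 0.1469), 0.1374 beyond column 72 (all genes 0.1774) and 0.1695 with normexp (all genes 0.1491). With a replicate left out it was 0.1343 to 0.1845 (all genes 0.1363 to 0.1725). With no filter, the median relative deviation was -0.086 on replicate 2 and 0.0569 on replicate 3, against -0.0066 and -0.0641 as reported. There the median of all genes itself lay at 0.1047 on replicate 2 and -0.1926 on replicate 3. The cause of these moves was not tested. The alpha minus beta difference ranged from 0.1428 to 0.3752 on replicate 1 and from -0.3942 to -0.2411 on replicate 4. No paired analysis was possible because the labels give 1 group. Signal near background limits Psma8 and Psme4.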
